A study of Mus musculus with 6 samples.

Results

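The probes described here carry GenBank accessions made of the letters AK and digits. Such accessions belong to cDNA clones sequenced from end to end, many of them in large mouse transcriptome projects. The members are the non-control probes of a mouse one-colour array whose accession has that form, 6036 of the 56605 non-control probes read. They stand for 5897 clones. Total RNA came from a murine glioblastoma stem cell line, kept as floating spheres in Neurobasal with B27, N2, EGF and bFGF. The line was derived from mouse glioblastomas that an SB transposon had induced. Both groups carried a lentiviral shRNA, non-target in the 3 control samples and against Ggct in the 3 knockdown samples. Ggct encodes γ-glutamylcyclotransferase, an enzyme of the γ-glutamyl cycle, and the design asks how expression differs when it is suppressed. The knockdown titles name 1 hairpin, and all samples come from 1 line, so effects of that hairpin or that line cannot be told apart from loss of Ggct. Each of 3 dates in the titles was shared by 1 control and 1 knockdown array, here called pairs 1 to 3. The labels do not say whether the samples were separate cultures, so p-values measure only how these arrays vary, which may be technical.

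Full-length cDNA projects cloned transcripts from their cap to their poly(A) tail in order to find messages that gene models of the time missed. Their collections hold coding messages, alternative ends of known genes, and many long non-coding or unspliced RNAs. A probe designed on such a clone reads any RNA that contains its short target, which may or may not be the main transcript of a known gene. The files pair the AK accessions with no gene name, and 0 of the 5897 accessions matched the RefSeq gene table of GRCm38.p6. The members are therefore called by accession, no role is stated for any of them, and no probe sequence is printed.

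The library labels were checked first. The Ggct probe read 3.32, 3.72 and 3.70 normalised log2 units on control arrays 1 to 3 and 0.22, 0.91 and 0.70 on the knockdown arrays. Its level in the knockdown was 12.7% of control (limma adjusted p = 0.0147). A normalised log2 unit is the log2 background-corrected spot signal after subtraction of its array's 75th percentile, so that 0 marks that percentile. The 75th percentile of spot signal ran from 812 to 1373 intensity units, 54.5% to 56.8% of all probes were well above background on each array, and 0 spots were saturated. Of 61 genes on the array in 10 lists of cell type markers, 37 were detected, 3 passed higher in the knockdown and 1 lower. Those were Clu (1.03), an astrocyte gene, Col1a2 (1.26), a fibroblast collagen, Hba-a1 (1.55), an α-globin gene, and Pdgfra (-0.90), a receptor of oligodendrocyte progenitors, as log2 fold changes. At the same threshold, a limma adjusted p below 0.05, 1.16% of all tested probes passed higher and 0.591% lower. The neural stem markers Nes and Sox2 were detected. Of the 8 microglia and macrophage markers 4 were detected (Csf1r, Itgam, Tmem119 and Cd68), while Ptprc, Cx3cr1, Aif1 and C1qa were not. Of the 5 T cell markers 3 were detected (Cd3e, Cd4 and Lck), and of the 3 B cell markers none. The summed level of the astrocyte list was 5.24 to 5.40 log2 units in control and 6.06 to 6.53 in knockdown arrays, and that of the red cell list -0.06 to 0.24 and 1.20 to 1.99. Of the 2 red cell genes on the array only Hba-a1 was detected. The oligodendrocyte list, at 1.95 to 2.07 and 1.88 to 1.94, did not overlap between the groups either, whereas the groups overlapped for the pericyte and fibroblast list (4.04 to 4.68 and 4.06 to 4.63). Among single tested probes, the groups did not overlap for 26.9%. The part of these cell type lists in the clone results was not tested.

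Fewer of the clone probes than of the other probes gave a signal in these cells. A probe counts as detected, and is tested, when it is well above background on 3 or more of the 6 arrays. That held for 2678 clone probes, or 44.4%, against 57.6% of the 50557 other probes. On all 6 arrays 2249 clone probes (37.3%) were above background, 3052 (50.6%) were so on none, and 735 (12.2%) on 1 to 5. The share per array was close in both groups. It was 42.7%, 42.3% and 45.4% on control arrays 1 to 3 and 44.3%, 41.7% and 43.2% on knockdown arrays 1 to 3. By class of accession, the share detected was 66.9% for RefSeq mRNAs (NM_), 52.9% for Ensembl transcripts and 47.1% for probes named by coordinates. It was 36.3% for RefSeq non-coding RNAs (NR_) and 25.1% for their predicted models (XR_). The clones thus lay between coding and non-coding RefSeq probes in share detected.

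**Figure D1:**
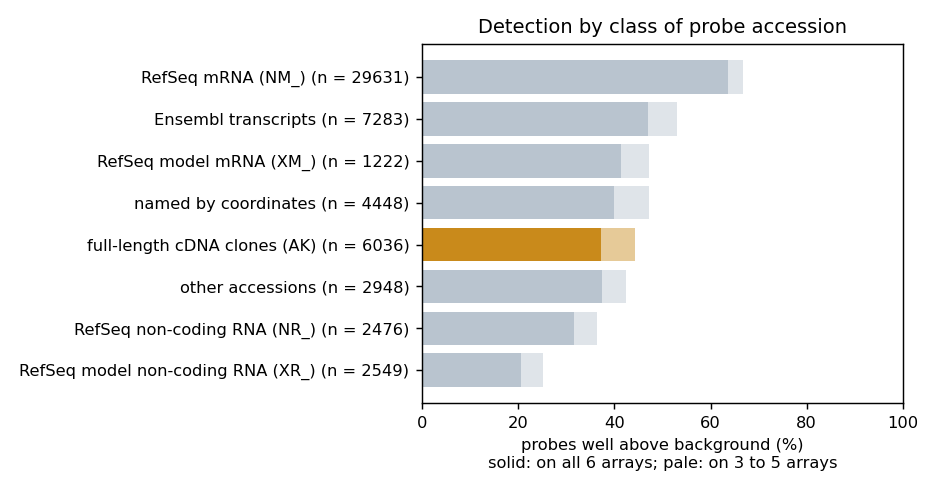
Share of probes well above background, in percent, by class of probe accession, on all 6 arrays (solid) or on 3 to 5 (pale). Clone probes, in orange, reach 44.4% in all, below RefSeq mRNA probes at 66.9% and above RefSeq non-coding RNA probes at 36.3%.

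Detection differed among the clones themselves. Of 1205 probes for accessions up to AK029999, 40.6% were detected, and of 3300 from AK030000 to AK099999, 41.3%. The share was 48.4% of 821 from AK100000 to AK149999 and 60.6% of 710 from AK150000 on. Within the last range, 197 of 286 probes in the block of 10000 that starts at 160000 were detected, or 68.9%. The probe names fall into 5 series by their prefix, whose meaning the files do not give. Series A_65 had 164 of its 217 clone probes detected, or 75.6%, where the series A_51, A_52 and A_66 had 34.9% to 36.4% and A_55 had 51.1%. Other probes of series A_65 were detected in a like share, 76.3% of 785, while other probes of A_51 were detected in 62.4%.

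Most detected clone probes were dim. Their mean over 6 arrays had a median of -2.93 normalised log2 units, with quartiles at -4.18 and -1.38, a lowest value of -5.66 and a highest of 8.66. The lowest signal well above background lay between -5.62 and -5.05 on the 6 arrays, so the lower quartile lay close to the limit of detection. Of the 2678 probes, 319 (11.9%) had a mean above 0, against 44.4% of all tested probes, and 48 had a mean above 4. The spread between arrays of a group was wider than for all tested probes. The median SD was 0.27 in control and 0.29 in knockdown arrays (n = 3 each), against 0.19 and 0.21 over all tested probes, and the median standard error (SE) of a fold change was 0.21 against 0.18. With 3 arrays a group, their number limits precision.

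The brightest clone probes did not pass the test. AK140265 read 8.77, 8.89 and 8.28 on control arrays 1 to 3 and 8.39, 8.89 and 8.74 on knockdown arrays 1 to 3. Before scaling, it read 234946, 252330 and 268675 intensity units on control and 256259, 253712 and 257316 on knockdown arrays. Its normalised values therefore mostly follow the array percentiles that were subtracted. Whether its signal was compressed was not tested. Its groups overlapped, and its log2 fold change of 0.03 ± 0.21 (SE) had a 95% interval from -0.47 to 0.53. The other 4 of the 5 brightest, AK139658, AK158840, AK136409 and AK089156, had mean levels of 8.24, 8.04, 7.85 and 7.78 and log2 fold changes from -0.07 to -0.04. Their 95% intervals all included 0 and lay between -0.54 and 0.42.

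A small number of clone probes passed the test between the groups. Across all 31804 tested probes, limma called 556, or 1.75%, at an adjusted p below 0.05. Of the 2678 clone probes 36 passed, or 1.34%, which is close to that background. 24 of them were higher and 12 lower in the knockdown, 0.896% and 0.448% of the clone probes, against 1.16% and 0.591% of all tested probes. These counts include 5 higher and 3 lower probes that were above background in 1 group alone, whose p-values support no change. In all 36 the values of the groups did not overlap, which by itself makes the 3 pairs alike in direction. Of all tested probes, 22.5% were above 0 in all 3 pairs and 20.4% below 0. Non-overlap alone was common. It held for 575 clone probes, or 21.5%, against 26.9% of all tested probes. For the 24 of the 36 that were above background on all 6 arrays, the sizes ran from 0.72 to 1.58 on the log2 scale. The adjusted p of the 36 ran from 0.0147 to 0.0494, with 10 of them under 0.04. The lowest was that of AK021128, which was above background in the knockdown alone. Unadjusted, 503 clone probes (18.8%) had a p below 0.05, 203 higher and 300 lower. Of all tested probes 19.1% had such a p, 10.4% higher and 8.67% lower. With the pair as a replicate block, 0 probes of the whole array passed in limma, and 514 clone probes had an unadjusted p below 0.05. The lowest adjusted p of any clone probe was then 0.0742, and those of the 36 ran up to 0.141. With a prior variance that follows the signal, 41 clone probes passed (1.53%, against 3.37% of all tested probes). With that and the block, 2 of the 2678 clone probes passed, where 72 of the 31804 tested probes did (0.226%). The 36 became 0 without control replicate 1, 2 or 3 or knockdown replicate 3, 1 without knockdown replicate 2 and 12 without knockdown replicate 1, where 0.604% of all tested probes passed.

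Among clone probes above background on all 6 arrays, 16 rose. AK029003 led them, at -4.57, -4.56 and -4.78 on control arrays 1 to 3 and -2.63, -3.15 and -3.38 on knockdown arrays 1 to 3. Every knockdown array was above every control array, and it rose 2.99-fold (1.58 ± 0.21 SE on the log2 scale, with adjusted p = 0.0363 in limma). With normexp background correction, whose added offset shrinks the folds of dim probes, its log2 fold change was 0.58 (adjusted p = 0.0945). AK171768 was a brighter clone and rose 2.53-fold, from -2.28, -2.12 and -2.45 in control to -0.50, -1.13 and -1.20 in knockdown arrays (1.34 ± 0.21 SE on the log2 scale, adjusted p = 0.0422 in limma). Knockdown replicate 1 was the highest array for both clones. AK045095 rose 2.49-fold, from -3.56, -3.36 and -2.89 to -1.90, -2.27 and -1.68, with pair differences of 1.66, 1.09 and 1.21. AK089991 stood near the 75th percentile of the arrays and rose 2.37-fold. It read -0.57, -0.87 and -0.58 in control and 0.95, 0.33 and 0.45 in knockdown arrays, or 363, 291 and 581 against 1470, 673 and 822 intensity units before scaling. Its 3 pair differences, 1.51, 1.20 and 1.03, were all above 2-fold, and its log2 fold change was 1.09 with normexp (adjusted p = 0.0273).

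The next 8 rises were close to 2-fold each. AK078931 (2.25-fold), AK011931 (2.17-fold), AK031231 (2.16-fold) and AK078316 (2.13-fold) had their largest pair difference in pair 1, between 1.32 and 1.64. AK011931 was the brightest of these 4, at -0.70, -0.81 and -0.99 in control and 0.62, 0.11 and 0.12 in knockdown arrays. AK039355 rose 2.12-fold, with pair differences of 1.43, 1.18 and 0.64, and its log2 fold change was 0.36 with normexp (adjusted p = 0.182). AK030680 rose 2.11-fold (1.08 ± 0.14 SE on the log2 scale, adjusted p = 0.0341 in limma), and its largest difference was in pair 3, at 1.34. AK139675 was the most even of the 12, with pair differences of 1.06, 0.98 and 1.06. It rose 2.05-fold, from -1.20, -0.98 and -1.02 in control to -0.15, 0.00 and 0.03 in knockdown arrays (limma adjusted p = 0.0346). AK087746 rose 2.04-fold, with 1.43 in pair 1 and 0.66 in pair 3. The adjusted p of the 12 with the replicate block ran from 0.0986 to 0.128.

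The falls above background on all 6 arrays were 8 and mostly smaller. AK085855 fell furthest, from -3.04, -3.30 and -3.12 on control arrays 1 to 3 to -4.17, -5.08 and -4.35 on knockdown arrays 1 to 3. The groups did not overlap, and its level was 2.61-fold lower (-1.38 ± 0.24 SE on the log2 scale, adjusted p = 0.0483 in limma and 0.0547 with normexp). AK090129 was 2.44-fold lower, from -3.47, -3.55 and -3.63 to -5.28, -4.68 and -4.55, lowest on knockdown replicate 1, and with normexp its log2 fold change was -0.43 (adjusted p = 0.254). AK028549 was 2.13-fold lower, with pair differences of -1.24, -1.09 and -0.95. AK171368 was the brightest clone among the falls. It read 1.23, 0.96 and 0.76 in control and 0.02, -0.07 and 0.05 in knockdown arrays, which is -0.98 ± 0.15 SE on the log2 scale (adjusted p = 0.0408 in limma and 0.0251 with normexp). AK077746 differed by similar amounts in the pairs, at -0.89, -0.97 and -0.99. The smallest falls were those of AK040628 (1.78-fold lower), AK169958 (1.72-fold lower) and AK034200 (1.65-fold lower). The adjusted p of the 8 with the replicate block ran from 0.107 to 0.125.

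**Figure D2:**
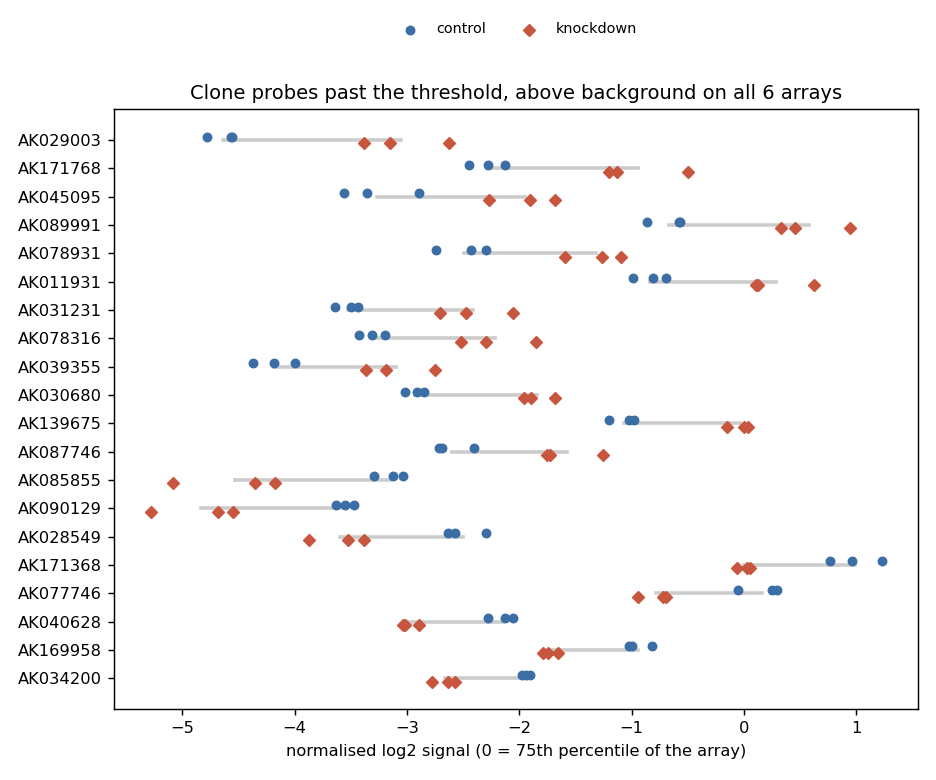
Normalised log2 signal on each array (blue circles, 3 control; red diamonds, 3 knockdown) for the 12 largest rises and all 8 falls among clone probes past the threshold and above background on all 6 arrays, with grey bars joining the group means. The groups of each clone are apart, and most values lie below 0, the 75th percentile of the array.

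The remaining 12 clone probes that passed were not above background on every array, and their signals lie near the limit of detection. For a clone above background throughout 1 group and nowhere in the other, the fold is given as a bound. The bound sets the mean of the bright group against, on each array of the dim group, the lowest signal well above background there or the probe's own signal if higher. Such a pattern was found in 16 clone probes in the knockdown alone and in 13 in the control alone. These are 0.265% and 0.215% of the 6036, against 0.193% and 0.0954% of the 56593 probes with a value on every array. They were tested only because every array of the brighter group was above background, so their p-values are given beside the bounds and support no change. Of the 36 clone probes past the threshold, 8 are of this kind.

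AK021128 had the highest bound among these clones. It was read at 3.52, 4.27 and 7.41 intensity units on control arrays 1 to 3, not well above background, and at 72.1, 30.0 and 47.5 on knockdown arrays 1 to 3. The normalised values were -7.26, -6.96 and -6.87 against -3.40, -4.16 and -3.66. Every knockdown array was above every control array. In the knockdown it was higher by at least 2.99-fold (limma adjusted p = 0.0147). That p rests on control values below background. The clone was past the threshold without a filter (adjusted p = 0.031), with quantile normalization (0.0306), and without knockdown replicate 1 (0.0224) or 2 (0.023). With normexp its log2 fold change was 0.62 (adjusted p = 0.0809), a smaller fold than the bound. It did not pass with the replicate block (0.0742) or without control replicate 1, 2 or 3 or knockdown replicate 3 (0.0784 to 0.12).

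The other clones read in 1 group alone had smaller bounds. With normexp the fold of each one named here was below its bound. AK161933 had a bound of 2.46-fold higher in the knockdown, but its pair differences of 3.75, 1.49 and 1.37 were uneven and it did not pass (limma adjusted p = 0.0591). AK089118 and AK080565 had bounds of 1.89-fold and 1.71-fold and did not pass (adjusted p in limma 0.154 and 0.0578). AK007076 had a bound of 1.68-fold (limma adjusted p = 0.047), and its log2 fold change was 0.18 with normexp (limma adjusted p = 0.61). In the control alone, AK031355 read -3.97, -3.99 and -3.81 on control and -5.76, -5.56 and -5.01 on knockdown arrays. Its bound was 2.54-fold lower in the knockdown (limma adjusted p = 0.0374). With normexp its log2 fold change was -0.44 (limma adjusted p = 0.185). AK005727, AK052084, AK051860 and AK045073 had bounds of 1.75-fold, 1.71-fold, 1.70-fold and 1.55-fold lower, and none of the 4 passed (limma adjusted p = 0.105 to 0.213). The arrays of the groups overlapped for AK051860, whose control array 3 read -5.32 and whose knockdown array 2 read -5.22.

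**Figure D3:**
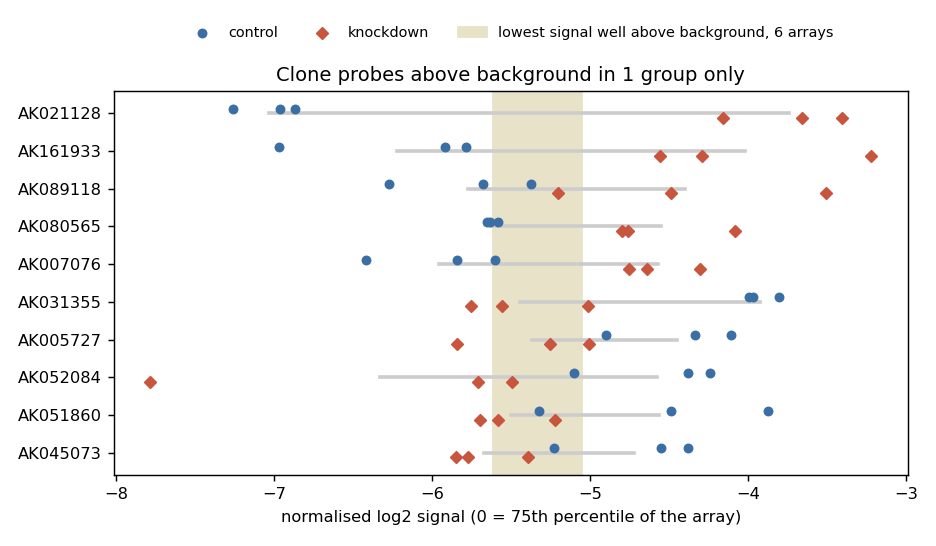
Normalised log2 signal on each array for the 10 clone probes with the highest bounds among those above background in 1 group only (blue circles, control; red diamonds, knockdown), with grey bars joining the group means. The shaded band spans the lowest signal well above background on the 6 arrays, -5.62 to -5.05, and AK021128 has its control arrays below it and its knockdown arrays above it.

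Differences of 2-fold or more were seen in more clones than passed the test. 98 clone probes (3.66%, against 2.86% of all tested probes) had a mean difference of that size, 44 higher and 54 lower, and 26 of them passed. In all 3 pairs at once, 18 differed at least 2-fold, 14 higher and 4 lower. That is 0.672% of the clone probes, against 0.956% of all tested probes, and 11 of the 18 passed. The 18 include AK021128, AK161933, AK052180, AK007076, AK089118 and AK031355. These were above background in 1 group alone, so their pair differences rest on values not well above background. Of these, AK021128, AK052180, AK007076 and AK031355 are among the 11 that passed, and their p-values support no change. The 98 also include such clones. With normexp the 18 became 1. The following clones lie outside the naming rule and were chosen after their values were seen. AK046160 read -2.14, -3.24 and -2.64 in control and 0.14, -1.03 and -0.86 in knockdown arrays, with pair differences of 2.28, 2.21 and 1.78. It was 4.25-fold higher in the mean and did not pass (limma adjusted p = 0.0517). Its adjusted p was 0.0742 with the replicate block, and 0.0426 with the block and a prior variance that follows the signal. AK199574 had pair differences of 1.70, 1.49 and 1.66 and did not pass (limma adjusted p = 0.0612). AK085652, above background on 5 arrays, was lower, with pair differences of -1.38, -1.66 and -1.92 (limma adjusted p = 0.0298). AK048833 had the lowest mean difference of all clone probes, but the size of that difference rests largely on knockdown array 1. It read -2.79, -2.97 and -3.42 in control and -7.74, -4.36 and -4.13 in knockdown arrays (limma adjusted p = 0.22).

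Beyond single clones, the detected clone probes lay slightly lower in the knockdown in the median. The median log2 fold change of the 2678 was -0.12, with quartiles at -0.37 and 0.11, and 1735 (64.8%) were below 0, against 50.9% of all tested probes. The median was 0.01 for RefSeq mRNA probes, 0.04 for RefSeq non-coding RNA probes and -0.04 for Ensembl probes. The pairs differed. The clone median was -0.32 in pair 1, -0.10 in pair 2 and 0.08 in pair 3, where the other probes had 0.00, 0.00 and 0.04. Of the clone probes, 672 (25.1%) were below 0 in all 3 pairs and 383 (14.3%) above 0, against 20.4% and 22.5% of all tested probes. The median level of the clone probes was -2.68, -2.97 and -2.96 on control arrays 1 to 3 and -3.06, -3.06 and -2.85 on knockdown arrays 1 to 3. Control array 1 was the highest, and the groups overlapped. Leaving out control replicate 1 gave a clone median of -0.04, and leaving out knockdown replicate 3 gave -0.18. With no filter on dim probes it was -0.04, close to the -0.03 of all probes. Lower levels of these RNAs per cell and fewer cells that make them cannot be told apart in bulk RNA.

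Over all 6 arrays, the shift was not limited to dim probes. The tested probes were split into 8 ranges by mean signal, from below -5 to above 2. In all 8 the median of the clone probes was below that of the other probes, by 0.088 to 0.19 log2 units. The difference held in all 8 ranges in pairs 1 and 2 and in 6 of 8 in pair 3. The exceptions in pair 3 were the brightest ranges. There the clone median was above that of the other probes, by 0.050 from 0 to 2 and by 0.12 above 2. From -4 to -3, where 525 clone probes lay, the clone median was -0.49 in pair 1 and that of 2936 other probes -0.19. Among the 110 clone probes above 2, the median was -0.07 over all arrays, against 0.02 for 8287 other probes. These are descriptions of this array, with no test. RNA quality was not measured here, and its part was not tested.

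**Figure D4:**
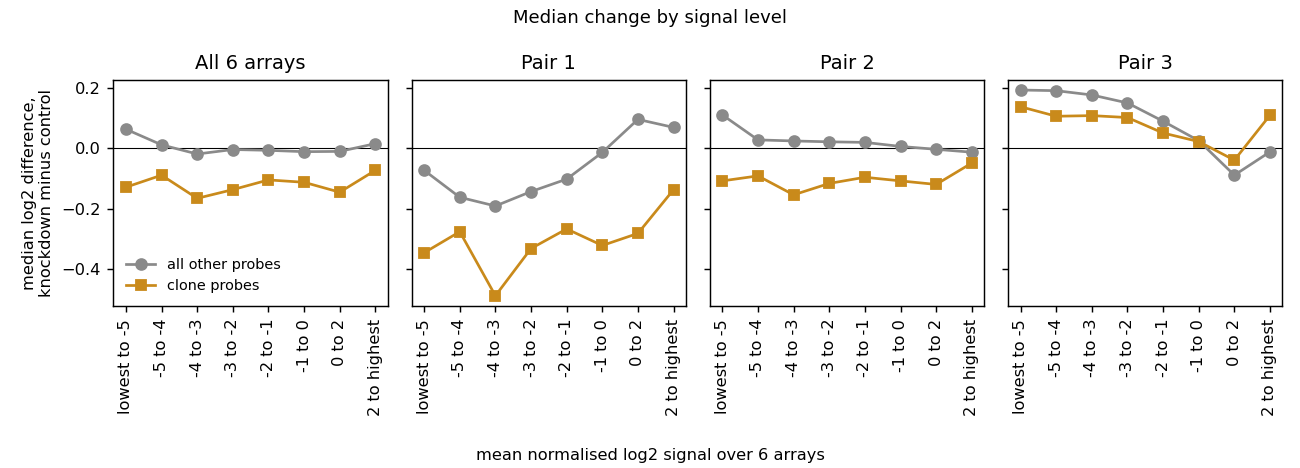
Median log2 difference, knockdown minus control, over all 6 arrays and in each pair, of clone probes (orange squares) and all other probes (grey circles) in 8 ranges of mean normalised log2 signal. The orange line lies below the grey line in every range over all arrays and in pairs 1 and 2. In pair 3 it does so in 6 of 8 ranges, all but those above 0.

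The shift also differed by probe series and by accession. The 164 tested clone probes of series A_65 had a median log2 fold change of -0.28, and 76.2% of them were below 0. Their medians were -0.34, -0.22 and -0.17 in pairs 1 to 3. The medians were also below 0 in every pair for series A_51 (-0.14, -0.07 and -0.08) and A_52 (-0.25, -0.10 and -0.08). Series A_55, the largest with 1467 tested clone probes, had medians of -0.41, -0.12 and 0.15, above 0 in pair 3. Those of series A_66 were -0.17, -0.02 and 0.11. The 599 other tested probes of series A_65 had a median of -0.10, below those of the other series, which lay between -0.005 and 0.03. Series A_66 had the median nearest to 0 among the clone probes, at -0.04. Of its 424 tested clone probes 11 passed, or 2.59%, against 1.75% of all tested probes. The 11 include AK021128, AK052180 and AK036299, which were above background in 1 group alone and whose p-values support no change. They also include AK085652 and AK040358, which were not above background on every array. By accession, the median was 0.08 for the 94 probes numbered below 10000, of which 39.4% were below 0. In the 4 blocks of 10000 that start at 20000, 30000, 40000 and 50000 it ran from -0.17 to -0.13. Of the 36 called probes, 22 had accessions from AK030000 to AK099999, where 1362 of the 2678 tested clone probes lie.

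Some clones were read by 2 probes. 139 accessions had 2 probes, and for 32 of them both were tested. For 45 one was tested and for 62 none. The 2 probes agreed in the direction of the knockdown difference for 27 of the 32, 18 lower and 9 higher. Their log2 fold changes correlated at Pearson's r = 0.75 across the 32 accessions, which share all 6 arrays. They differed by 0.17 in the median, less than the median SE of 0.21. Where at least 1 probe had an unadjusted p below 0.05, the direction was the same for 13 of 13. None of these clones passed. For AK018074 the probes gave -0.71 ± 0.16 and -0.81 ± 0.16 (SE; adjusted p in limma 0.08 and 0.0604). For AK040528 they gave -0.67 ± 0.17 and -0.61 ± 0.17 (SE), and for AK006737 both gave 0.47. The widest gap was that of AK035253, with log2 fold changes of -0.95 ± 0.39 and -0.07 ± 0.15 (SE). Its probes also stood apart in level, with means of -2.71 and 2.31. AK018074, AK040528, AK006737 and AK035253 were named after their values were seen.

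**Figure D5:**
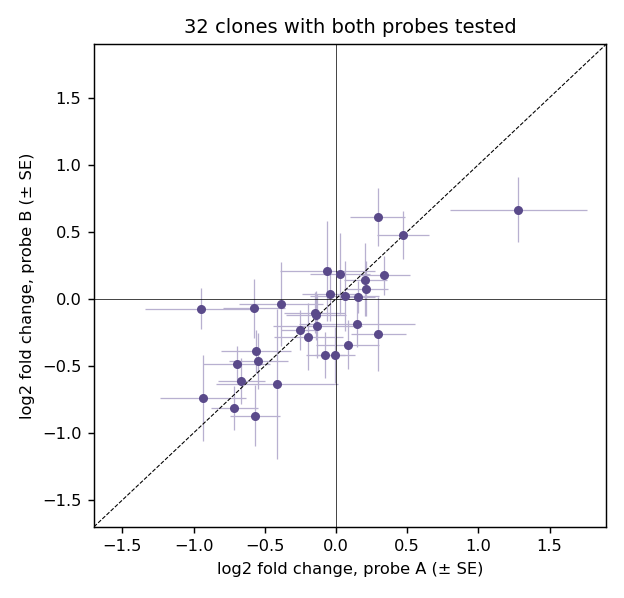
Log2 fold change, knockdown minus control, of both probes of each of the 32 clones with 2 tested probes, with bars of 1 SE; the dashed line marks equal values. The points follow the line (r = 0.75), and 27 of 32 lie in the quadrants of equal direction.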

How the data were processed

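Spot intensity values were background-corrected in Agilent Feature Extraction 11.0.1.1, per the file headers, and used as deposited. All 6 arrays share 1 scan date. The deposited value table holds log2 values whose steps are unstated. On the tested probes it differed from the scanner values used here by 1 constant per array within 0.01, and its column medians ran from -4.47 to -4.22. Outlier spots were left out, spots of a probe averaged as log2, and each array's 75th percentile subtracted. 12 probes with no usable spot on some array were left out, none of them a clone probe. Probes well above background on at least 3 arrays were tested by limma 3.58.1 (R 4.3.3; lmFit, eBayes, two-sided, no block), with Benjamini-Hochberg adjustment over all 31804. The fit was tested on simulated data. Python 3.11.15 computed the tables.

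Named were the 12 largest rises and falls past the threshold (above background on all 6 arrays, alike in all pairs), 5 clones per direction read in 1 group only, the 5 brightest, and list members, of which there were none for want of symbols. The library of origin and same-gene probes could not be compared for the same reason. Members, lists and rules were chosen with earlier results of these data known. Dates in the titles pair the arrays. Deviations from group means of paired arrays correlated at -0.17, 0.60 and -0.34 over all tested probes and -0.09, 0.58 and -0.28 over clone probes. Normexp used the median spot and background signals. The genomic build in the file headers differs from GRCm38, so no coordinates are given.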

Additional observations from a re-analysis of the deposited data

How the results depend on the processing

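Of 36 clone probes past the threshold in limma, 24 higher and 12 lower, the count with the pair as a replicate block was 0 in both directions (unadjusted p below 0.05 in 514). With a prior variance that follows the signal, added after seeing the data, it was 41, of which 30 were among the 36, and together with the replicate block 2, both higher and none (0) lower. It was 20 with normexp (13 higher, 7 lower), 2 without a filter (1 higher, 1 lower) and 26 with quantile normalization, with 15 higher. Over all probes the count was 556 as designed, 591 with normexp, 58 without a filter and 414 with quantile normalization. With normexp the count thus fell among the clone probes and rose over all probes. Among clone probes it was 36 with the deposited table, 36 with the percentile taken from probes detected on every array, 33 with those probes alone and 45 with 1 probe per accession. Over all probes these settings gave 554, 571, 621 and 622. Leaving out 1 array gave 0 to 12 clone probes in all, 0 to 7 higher and 0 to 5 lower, with 333 to 545 at an unadjusted p below 0.05. Over all probes it gave 0 to 192. The cause of these lower counts was not tested. Of the 23 named clones past the threshold, all kept their direction under each setting that tested them (20 were tested among probes detected on every array), 10 passed with normexp, 14 with quantile normalization and 1 without a filter. The share of clone probes detected was 49.4% on 1 or more arrays and 37.3% on all 6. The 18 clones at 2-fold or more in all pairs were 1 with normexp and 16 with quantile normalization. The median log2 fold change of clone probes ran from -0.18 to -0.04. The latter was found without control replicate 1 and without a filter, where all probes had -0.03. With 29.2% of tested clone probes under -4 and the lowest signal well above background between -5.62 and -5.05, closeness to background limits these folds.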
